A study of Mus musculus with 4 samples.

Results

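The class named Macro in the annotation deposited by the authors is a small group of tumour macrophages, and its members were the cells that carry that name. It held 205 of 34447 cells, with 73 in the CTRL library, 4 in IRF3/7, 23 in COX2i and 105 in COX2i + 5-AZA. The working description of these cells is of resident-like macrophages with Retnla and Lyve1, and 7 genes were taken as its markers (Retnla, Alox15, Cd209f, Cd163, Lyve1, Ccl8 and Cd226). The cells came from tumours of YUMM1.7OVA RTT, a Braf-mutant, Cdkn2a-deficient mouse melanoma line that expresses ovalbumin and was made resistant to targeted therapy and kept in the BRAF inhibitor dabrafenib.

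All groups shared the host and the T cell transfer. The line was grown in Rag2-/- mice, which have no T or B cells of their own but keep macrophages and NK cells, and ovalbumin-specific OT-1 T cells were given on day 7. Tumours were taken on day 10, that is 72 h later, and live CD45+ cells were sorted. CTRL tumours carried an mCherry vector, and in IRF3/7 tumours a viral promoter drove Irf3 and Irf7 in the cancer cells, as bulk-sorted lines. COX2i tumours were from mice given the COX2 inhibitor celecoxib, and COX2i + 5-AZA tumours from mice given celecoxib and the DNA methyltransferase inhibitor 5-Azacytidine. Each group was 1 library pooled from 3 tumours, so there was no replicate spread and no test between conditions. Intervals in parentheses are exact 95% intervals that cover counting error only.

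Macrophages of resting tissues are often told apart from macrophages newly made from blood monocytes by genes for scavenging. LYVE1 is a receptor for hyaluronan, CD163 takes up haemoglobin bound to haptoglobin, and CD209f is a lectin. RELMα, the product of Retnla, and the lipoxygenase ALOX15 are classical targets of IL-4 and IL-13 acting through STAT6. CCL8 attracts leukocytes through chemokine receptors, and CD226 is an adhesion receptor better known from lymphocytes.

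A promoter from the RefSeq table (GRCm38.p6) was used for 4 of the 7 markers. The 3 shown are those of these 4 markers that were found in the most cells. They are given 5′ to 3′ on the plus strand and end just before the gene. They are Retnla at chr16:48842359-48842550, Ccl8 at chr11:82114935-82115184 and Cd163 at chr6:124304401-124304650. Capitals mark matches on either strand to TTC and GAA with 4 bases between them (the STAT6 motif, in 5.9% of 32536 promoters over the 250 bases upstream), TTGCNNAA (C/EBP, 9.6%), TGCTGA (the core of the MAF motif, 16.1%) and GAGGAA (PU.1, 23.4%). The Retnla window is 192 bases, since 58 bases inside the gene were left out, so these shares are for a longer window.
Retnla: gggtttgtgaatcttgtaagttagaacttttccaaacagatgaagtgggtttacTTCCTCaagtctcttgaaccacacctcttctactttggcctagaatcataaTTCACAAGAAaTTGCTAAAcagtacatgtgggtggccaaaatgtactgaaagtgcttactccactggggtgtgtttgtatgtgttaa
Ccl8: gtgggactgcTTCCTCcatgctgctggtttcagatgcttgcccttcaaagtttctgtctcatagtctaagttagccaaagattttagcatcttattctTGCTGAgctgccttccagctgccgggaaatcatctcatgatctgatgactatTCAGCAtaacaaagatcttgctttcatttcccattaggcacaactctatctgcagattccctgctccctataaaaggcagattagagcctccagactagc
Cd163: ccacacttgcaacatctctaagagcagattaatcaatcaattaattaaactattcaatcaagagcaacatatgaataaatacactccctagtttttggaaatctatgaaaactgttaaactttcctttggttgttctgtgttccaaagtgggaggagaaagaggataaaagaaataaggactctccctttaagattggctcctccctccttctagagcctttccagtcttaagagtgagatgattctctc
The Retnla window held 1 match to the STAT6 motif, 1 to the C/EBP motif beside it and 1 to the PU.1 motif. That of Ccl8 held none to the first and second, 2 to the MAF motif and 1 to the PU.1 motif, and that of Cd163 none to any. A match says only that these letters are present.

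The 4 libraries held 6329 to 10032 cells and 26356819 to 78722763 UMIs (counted molecules), IRF3/7 being the shallowest. The median Macro cell held 6550 UMIs in CTRL, 8132.5 in IRF3/7, 8423 in COX2i and 8249 in COX2i + 5-AZA, against 6857, 1965, 7368 and 9345 in TAM_C1q, the class of complement-rich macrophages. Droplet barcodes that occurred in more than 1 library were found for 29.1% of all cells and for 56 of the 205 Macro cells (27.3%), and no doublet caller was run. The 4 samples were pooled in 1 multiplexed experiment and told apart by probe barcodes, so a shared droplet barcode need not mark a doublet. The pan-macrophage genes were present. C1qa, a complement subunit, was at 6717, 4734 and 5173 counts per 1000000 UMIs (CPM) in the Macro cells of CTRL, COX2i and COX2i + 5-AZA. Csf1r, the receptor for the macrophage growth factor M-CSF, was at 1105, 583 and 557 CPM. In COX2i Csf1r was below the other 5 macrophage classes (1081 to 1614 CPM), as it was in COX2i + 5-AZA (945 to 1271 CPM). In COX2i it was near the level of the dendritic cell class cDC2 (520 CPM). C1qa was not limited to macrophages either, at 6189 CPM in the inflammatory monocytes (Infl_Mono) of CTRL.

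Macro cells were scarce in every library, and COX2i and COX2i + 5-AZA stood at opposite ends of the 3 better-filled libraries. Their share of all cells was 0.815% (0.640 to 1.02) in CTRL, 0.0632% (0.0172 to 0.162) in IRF3/7, 0.252% (0.160 to 0.378) in COX2i and 1.05% (0.857 to 1.27) in COX2i + 5-AZA. Of the 6 macrophage classes together they made up 0.977% (0.766 to 1.23), 0.911% (0.249 to 2.32), 0.337% (0.214 to 0.506) and 2.55% (2.09 to 3.08), in the same order. On this denominator COX2i was at 0.345 times CTRL (0.206 to 0.558), COX2i + 5-AZA at 2.61 times CTRL (1.92 to 3.57) and at 7.56 times COX2i (4.78 to 12.4). IRF3/7, with 4 cells, was at 0.933 times CTRL with an interval from 0.248 to 2.49, so that no difference was detectable there. Over all cells the picture differed, since IRF3/7 was at 0.0775 times CTRL (0.0206 to 0.207) and the interval of COX2i + 5-AZA against CTRL included 1 (ratio 1.28, 0.943 to 1.76). With 3 pooled tumours and 1 library a group, tumours and treatments cannot be told apart.

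**Figure D1:**
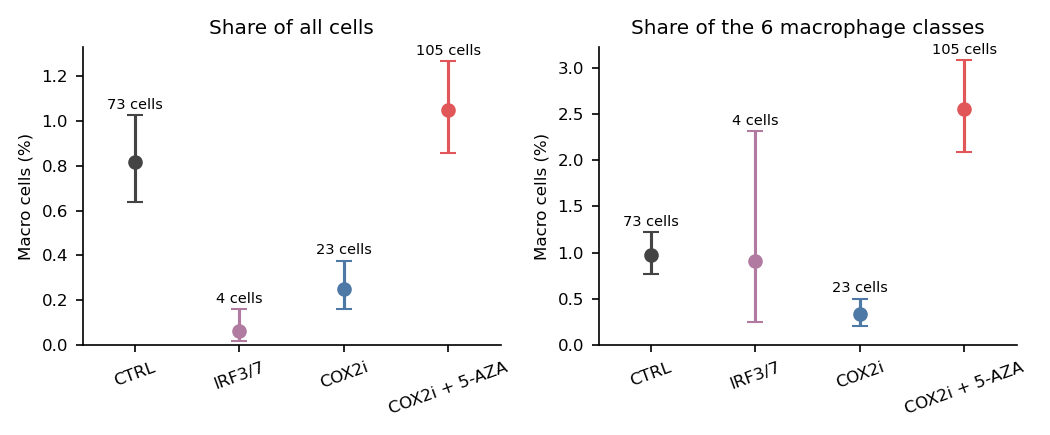
Share of Macro cells among all cells (left) and among the 6 macrophage classes (right) in each library, in percent, with exact 95% intervals for counting error and the number of Macro cells above each. The IRF3/7 point, from 4 cells, is low on the left and near CTRL on the right, and the COX2i + 5-AZA point is the highest in both panels.

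Summed over the class, 6 of the 7 markers were at least 2-fold above the other macrophages on the mean of the libraries with a value, against 8.1% of all genes, but each of them sat in a minority of its cells. Over all libraries a UMI of Ccl8 was found in 95 of 205 cells (46.3%, 39.4 to 53.4), of Lyve1 in 73 (35.6%, 29.1 to 42.6), of Cd226 in 55 (26.8%, 20.9 to 33.4), of Retnla in 49 (23.9%, 18.2 to 30.3), of Cd163 in 37 (18.0%, 13 to 24) and of Cd209f in 13 (6.34%, 3.42 to 10.6). All 107 Alox15 UMIs of the class lay in 1 cell of COX2i + 5-AZA. In cDC2, a dendritic cell class taken for comparison, the shares were between 0 (Cd209f, 0 of 1962 cells, upper bound 0.188%) and 1.07% (Ccl8 and Cd226). The median cDC2 cell held 4131 UMIs, against 7636 in Macro. For Cd226 the cDC2 share was no even background, with 0 of 645 cells in CTRL and 8 of 261 (3.07%) in COX2i + 5-AZA. In cDC1, another dendritic cell class, 12 of 60 cells (20%) of COX2i + 5-AZA held Cd226. The label thus describes the sum of the class rather than its typical cell, and the cells are called Macro cells below.

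Thinning each cell to 2000 UMIs removed the difference in depth and left 199 Macro cells. Of these, 25 of 71 in CTRL, 6 of 21 in COX2i and 32 of 104 in COX2i + 5-AZA showed none of the 7 markers. At least 3 markers were found in 13 of 71 (18.3%, 10.1 to 29.3), 2 of 21 (9.52%, 1.17 to 30.4) and 10 of 104 (9.62%, 4.71 to 17.0). Cells with 3 or more markers also lay outside the class. In CTRL there were 22 such cells among the 8602 others, 18 of them in TAM_C1q and 4 in TAM_cycling, which outnumbered the 13 in Macro. In COX2i 3 such cells lay outside, all in TAM_C1q, and in COX2i + 5-AZA 4 lay outside.

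Retnla (chromosome 16, 48842551 to 48844461, plus strand, GRCm38) was the marker furthest from the other macrophages on the mean of 3 libraries, though in COX2i + 5-AZA Cd209f (8.24), Alox15 (6.36) and Cd226 (6.54) had larger log2 ratios. It stood at 835 CPM (756 to 919) in the Macro cells of CTRL, 150.4 (41.0 to 385) in IRF3/7, 5116 (4810.3 to 5436) in COX2i and 3439.5 (3323 to 3559) in COX2i + 5-AZA. The other macrophages were at 0.206, 12.3 and 50.6 CPM in CTRL, COX2i and COX2i + 5-AZA, giving log2 ratios of 11.99, 8.71 and 6.09. A few cells carried these sums. In CTRL 8 of 73 Macro cells held any Retnla and the top cell held 46.4% of the UMIs, and in COX2i 5 of 23 held any and the top cell 45.6%. In COX2i + 5-AZA 35 of 105 held any, and the top cell held 9.36%.

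Retnla was also found outside the class in the treated libraries. Macro held 97.4% of all Retnla UMIs in CTRL, 58.4% in COX2i and 57.8% in COX2i + 5-AZA. Cells with 10 or more Retnla UMIs numbered 6 in CTRL, all of them Macro cells. In COX2i 4 of 7 such cells were Macro cells, 2 were TAM_cycling, both on shared droplet barcodes and with 592 Retnla UMIs, and 1 was TAM_Spp1. In COX2i + 5-AZA 28 of 37 were Macro cells and 6 were TAM_cycling, with 1 each in TAM_C1q, Monocyte_1 and the NK cells.

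Lyve1 and Cd163 were highest in CTRL. Lyve1 (chromosome 7, 110850607 to 110863239, minus strand) was at 1214 CPM (1119 to 1315) in CTRL, 504 (412 to 612) in COX2i and 281 (249 to 317) in COX2i + 5-AZA. Cd163 (chromosome 6, 124304656 to 124330527, plus strand) was at 895 (814 to 983), 299 (228 to 384) and 249.8 (219 to 284) CPM. The intervals of CTRL lay above those of the treated libraries for both genes, although in COX2i 1 cell held 50.5% of the Lyve1 and 45.9% of the Cd163 UMIs. In the 4 IRF3/7 cells they rested on 3 and 5 UMIs. Both genes were lower in the treated libraries within TAM_C1q as well, where Lyve1 was at 104, 41.2 and 17.8 CPM and Cd163 at 121, 24.6 and 9.79 CPM. The Macro levels were above those of TAM_C1q in each of the 3 libraries, with mean log2 ratios to that class of 3.72 for either gene.

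Ccl8 (chromosome 11, 82115185 to 82116799, plus strand) was nearly level between the 3 libraries within Macro. Its values were 1692 CPM (1579 to 1810.4) in CTRL, 1620.4 (1451 to 1805) in COX2i and 1443 (1368 to 1521.5) in COX2i + 5-AZA. In TAM_H2Ab1, a class with high MHC class II, it was at 1874 CPM in CTRL, 208 in COX2i and 694 in COX2i + 5-AZA. TAM_H2Ab1 held 19 cells in CTRL, and 1 of them held 85.7% of its Ccl8 UMIs, so its place above Macro there rests on that cell. Ccl8 in the IRF3/7 cells was at 5867 CPM (4982 to 6863), of which 1 cell held 96.2%.

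The rarer markers followed no common order. Cd209f was at 119 CPM (90.6 to 153) in CTRL, 64.8 (49.7 to 83.1) in COX2i + 5-AZA and 0 of 204269 UMIs in COX2i, which allows up to 14.7 CPM by the limit of 3 counts (exact upper bound 18.1). Cd226 was at 40.3 CPM (24.6 to 62.3), 93.0 (56.0 to 145) and 120.2 (99.2 to 144) in CTRL, COX2i and COX2i + 5-AZA. Alox15 was at 0 in CTRL and COX2i and at 112 CPM in COX2i + 5-AZA, from its 1 cell. The Cd209 genes are near-identical neighbours, and probes that bind more than 1 of them were not checked.

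**Figure D2:**
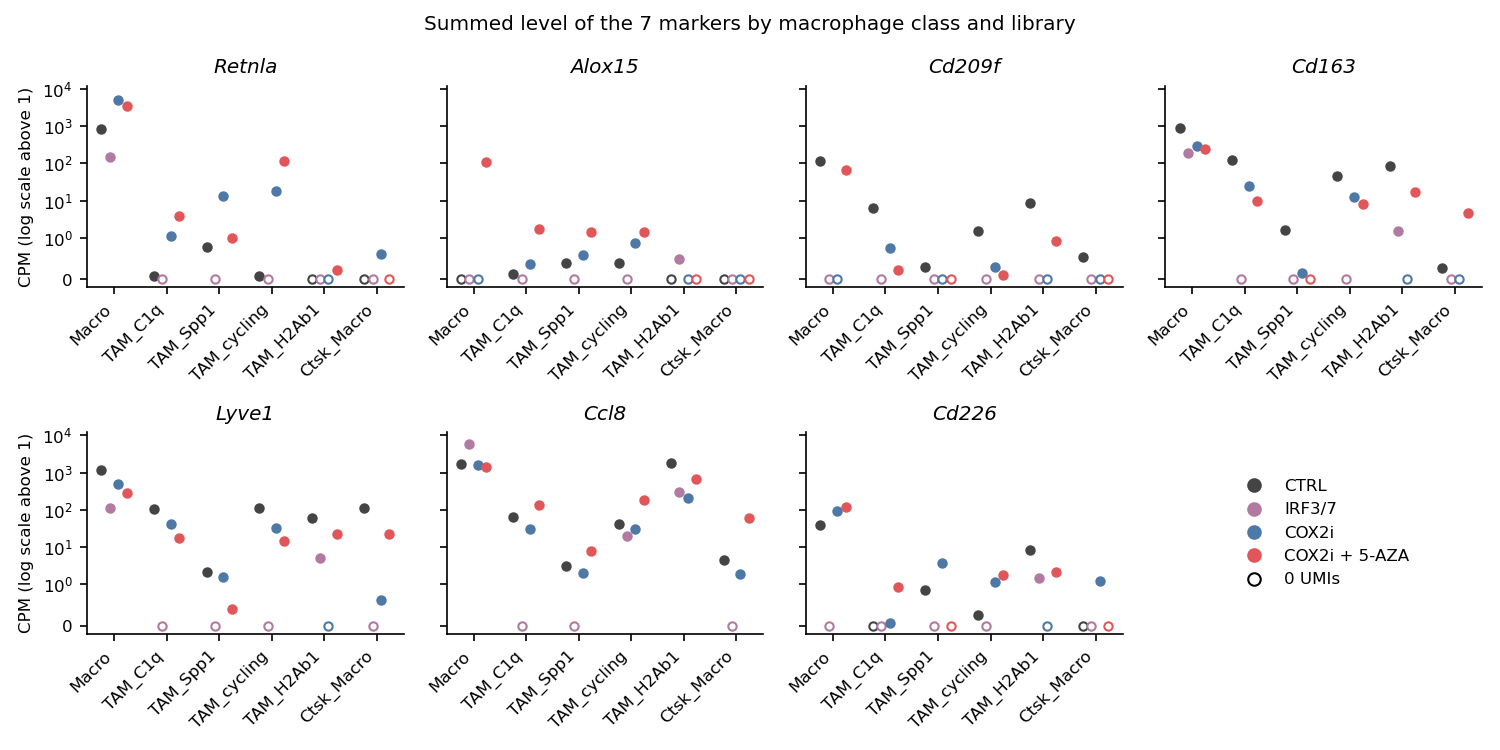
Summed level of each marker in CPM (log scale above 1, linear below) in the 6 macrophage classes, with 1 point per library and open points where no UMI was counted. Macro points lie above the other classes for Retnla, Cd163 and Lyve1 in every library, whereas for Ccl8 the CTRL point of TAM_H2Ab1 (1874 CPM) is above that of Macro (1692 CPM) with 85.7% of its UMIs in 1 of 19 cells.

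Few Macro cells held both Retnla and Lyve1, each of which was rare by itself. Over the 205 cells, 13 held a UMI of both, 36 of Retnla alone, 60 of Lyve1 alone and 96 of neither. Among the 148 Macro cells left without possible doublets (cells on a shared droplet barcode or with unusually many UMIs) the counts were 9, 31, 41 and 67. In CTRL 2 of 73 cells held both, in COX2i 1 of 23 and in COX2i + 5-AZA 10 of 105. After thinning, Retnla was found in 8 of the 58 cells with Lyve1 (13.8%) and in 34 of the 141 without it (24.1%). By library the shares were 3.0% against 15.8% in CTRL, 25% against 17.6% in COX2i and 28.6% against 30.1% in COX2i + 5-AZA, so that the shares had no common order. Even in CTRL, with the widest gap, the intervals (0.0767 to 15.8 and 6.02 to 31.3) overlapped. They come from 33 and 38 cells, and overlap is no test, so whether 1 gene avoided the other was not tested.

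Other markers were also unevenly spread. Cd163 was found in 39.4%, 50% and 42.9% of the thinned cells with Lyve1 and in 7.9%, 11.8% and 3.6% of those without it, in CTRL, COX2i and COX2i + 5-AZA. The cells with Lyve1 numbered 33, 4 and 21, so that the COX2i value is 2 of 4 cells. Ccl8 was found in 63.8% of the 58 cells with Lyve1 (50.1 to 76.0) and in 26.2% of the 141 without it (19.2 to 34.3). Cd209f was detected in 15.2% and 19.0% of Lyve1 cells in CTRL and COX2i + 5-AZA, and in 0 of 38 and 1.2% of the others. By Retnla, Cd163 had no common order, with log2 ratios of its CPM in cells with Retnla to cells without of -3.43 in CTRL, 0.22 in COX2i and 1.23 in COX2i + 5-AZA. Over all libraries Cd209f was found in 4 of 42 thinned cells with Retnla and in 6 of 157 without. Cd226 was more frequent with Retnla. It was found in 28.6% of the 42 thinned cells with Retnla (15.7 to 44.6) and in 5.7% of the 157 without it (2.7 to 10.6), but in 3.4% of the cells with Lyve1 and 13.5% of those without.

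**Figure D3:**
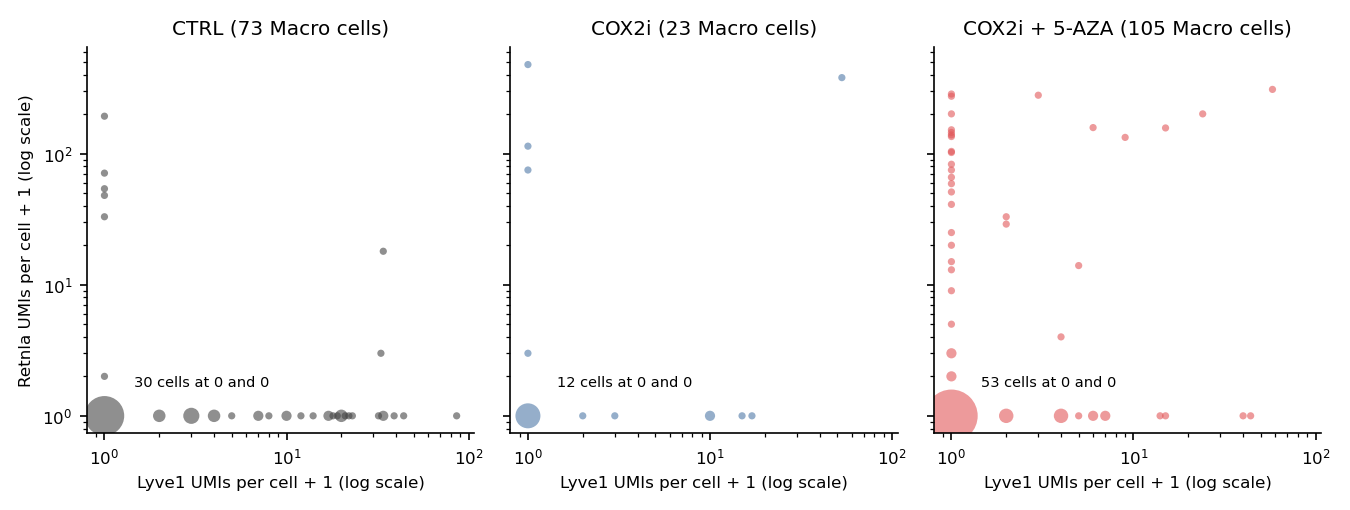
UMIs of Retnla against UMIs of Lyve1 in each Macro cell of CTRL, COX2i and COX2i + 5-AZA (each plus 1, on log axes), with the area of a point in proportion to the number of cells at that position. Most cells lie on an axis or at the origin, where 30, 12 and 53 cells held neither gene, and cells with many UMIs of both are few.

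The rest of the transcriptome was compared along the same lines, as a description of cells chosen by those genes. Of 3444 genes with enough UMIs, 103 were at least 2-fold higher and 172 at least 2-fold lower in Macro cells with Lyve1 than in those without. Fcna, a secreted ficolin with the largest ratio, was at 1874, 1307 and 997 CPM with Lyve1 and at 118, 111 and 166 CPM without, in CTRL, COX2i and COX2i + 5-AZA. Folr2, a folate receptor of tissue macrophages, was at 1930.4, 2846 and 1865 CPM with Lyve1 and at 526, 672 and 555 CPM without. Il4ra, the IL-4 receptor chain, had log2 ratios of 1.23, 0.97 and 1.14. All 3 genes were higher with Lyve1 in each library.

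MHC class II went the other way. H2-Ab1, a class II chain, was at 1191, 2529 and 3794 CPM in cells with Lyve1 and at 9368, 7324 and 6499 CPM in cells without, in the same order of libraries. Its invariant chain Cd74 was at 5247, 12141 and 12502 CPM with Lyve1 and at 26782, 20588 and 16771 CPM without. Fn1, which encodes fibronectin (mean log2 ratio -2.97), and the inflammatory cytokine gene Il1b (-2.69) were lower with Lyve1 in all 3 libraries.

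Macro cells with Retnla were led by other genes. Lyz1, a lysozyme, was at 2309, 1689 and 1560.5 CPM with Retnla and at 209.96, 102 and 139.9 CPM without. Fn1 was at 15850.0, 6916.5 and 3367 CPM against 3501, 956 and 876 CPM. The coagulation factor F10 had a mean log2 ratio of 2.00, with 2.39, 1.55 and 2.05 by library. These 3 genes were higher with Retnla in every library, and their mean log2 ratios with Lyve1 were -2.39, -2.97 and -2.64. That of F10 includes a bound of -1.05 in COX2i, where no UMI was counted with Lyve1, beside -3.65 in CTRL and -3.21 in COX2i + 5-AZA. That of Fn1 spans -1.72 in CTRL to -4.58 in COX2i + 5-AZA. The lysosomal membrane protein Cd63 (mean log2 ratio -2.32), the scavenger receptor Msr1 (-1.92) and Aif1, a macrophage actin-binding protein (-1.91), were lower with Retnla in every library. In CTRL and COX2i the cells with Retnla numbered 7 and 4.

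Against the other 5 macrophage classes of the same library, Macro was described over 10450 genes as the mean log2 ratio of CTRL, COX2i and COX2i + 5-AZA. A total of 846 genes (8.1%) were at least 2-fold higher and 1352 (12.9%) at least 2-fold lower, and the median gene was at -0.27. Since the classes were cut from these same genes, the values describe the class and test nothing. Beside Retnla, the largest ratios among genes with at least 50 Macro UMIs and a value in all 3 libraries were those of C6, a late complement component (7.63), Cd226 (6.71), Aldh1a2, which makes retinoic acid (6.66), Mamdc2 (6.14) and the laminin receptor Bcam (5.97). The place of C6 rests on COX2i, where it was at 11.78 from 3 cells, against 6.30 in CTRL and 4.81 in COX2i + 5-AZA, and its mean without COX2i was 5.56. These genes too were carried by few cells, such as Aldh1a2 by 6 of 73, 5 of 23 and 20 of 105.

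Other high genes were shared more widely. The lectin Clec10a was at 302, 469.97 and 228 CPM against 7.22, 9.69 and 16.6 CPM in the other macrophages, and it was found in 48 of 73, 15 of 23 and 63 of 105 Macro cells. Ms4a8a, a membrane protein of alternatively activated macrophages, was found in 44, 15 and 82 cells, with a mean log2 ratio of 4.36. Pltp, the phospholipid transfer protein, had log2 ratios of 3.32, 3.41 and 3.17 and was found in 72, 21 and 92 cells. These 3 genes were present in most Macro cells of each library, unlike the markers.

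Most of the 10 lowest genes were those of osteoclast-like or dividing macrophages. The protease Ctsk (-5.69) and the gelatinase Mmp9 (-5.53) define Ctsk_Macro, which is among the classes compared, and against TAM_Spp1 alone Ctsk turned to 0.32. Rrm2 (-4.32), needed for DNA synthesis, the cyclin Ccna2 (-4.19) and the spindle protein Tpx2 (-3.83) are genes of the cell cycle, and TAM_cycling is among the classes compared. Against TAM_C1q alone the same 3 were at -0.44, -0.89 and -1.19. Tmem119 (-4.56), the chemokine Cxcl14 (-4.16) and Pmepa1 (-4.10) belong to neither group and were as low against TAM_C1q alone, at -4.86, -4.31 and -4.53. By library Tmem119 was at -2.15, -6.03 and -5.49 in CTRL, COX2i and COX2i + 5-AZA, from 30, 1 and 3 UMIs in Macro.

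**Figure D4:**
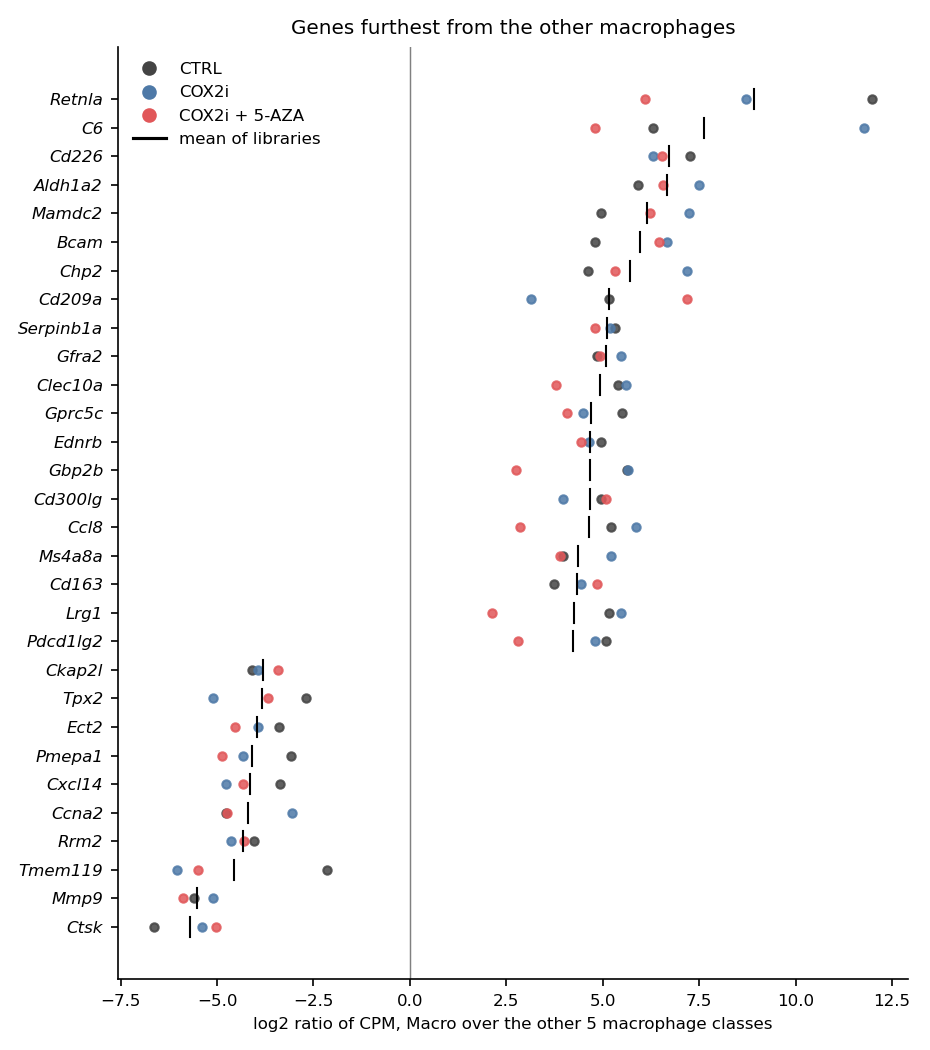
Log2 ratio of CPM in Macro over the other 5 macrophage classes for the 20 genes with the largest and the 10 with the smallest mean, with 1 point per library and a bar at the mean. All points of a gene lie on 1 side of 0, which the choice of genes required, and the spread between libraries is widest for C6 and Retnla.

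Gene lists differed in how many of their members set Macro apart. Of the resident and scavenger list, 10 of 21 genes were at least 2-fold higher and 5 at least 2-fold lower (median 0.99), where over all genes, for this and the lists that follow, 8.1% were higher and 12.9% lower (median -0.27). The median was 1.17 in CTRL, 0.54 in COX2i and 0.01 in COX2i + 5-AZA, so that in the library with the most Macro cells the list as a whole was level. Ednrb, an endothelin receptor (4.68), Pltp (3.3), the carbonyl reductase Cbr2 (1.85) and Folr2 (1.68) were among the higher ones. The mannose receptor Mrc1 was near level (-0.30), and Fcrls (-2.35), Stab1 (-1.54) and Pf4 (-1.28) were lower. The list therefore did not move as a block. Of genes known from macrophages of body cavities, 8 of 9 were higher and none was lower (median 2.77), with Lrg1 (4.26), Padi4 (3.19), F5 (2.77) and Fcna (2.08) among them. By library Lrg1 was at 5.18, 5.49 and 2.13 in CTRL, COX2i and COX2i + 5-AZA.

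The list of IL-4 and IL-13 responses had 9 of 16 genes higher and 2 lower (median 2.15), with medians of 1.34, 2.71 and 0.82 in CTRL, COX2i and COX2i + 5-AZA. Clec10a (4.92), Pdcd1lg2, which encodes the checkpoint ligand PD-L2 (4.23), Irf4 (3.71) and Egr2 (2.35) were higher. Chil3, a chitinase-like protein, was lower on the mean (-2.09), although it was at 0.57 in COX2i + 5-AZA, and Stat6 itself was level (-0.01).

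Antigen presentation and interferon genes were mostly higher than in the other macrophage classes summed. That sum held no monocytes and, in CTRL, 19 TAM_H2Ab1 cells against 3199 of TAM_C1q. These lists were not compared with TAM_H2Ab1 alone or with the monocyte classes, so the trait need not be particular to Macro. Of 10 MHC class II genes 8 were higher and none was lower (median 1.83), with H2-Aa at 2.42 and the class II transactivator Ciita at 2.42. All 14 genes of the list skewed to type I interferon were higher (median 1.80), among them Zbp1 (2.52) and Ifi44 (2.30), and so were all 15 of the list skewed to interferon-γ (median 2.16), with Gbp4 (2.84) and Gbp2 (2.53). By library the medians in CTRL, COX2i and COX2i + 5-AZA were 2.14, 3.3 and 1.13 for the interferon-γ list and 2.34, 2.48 and 1.20 for MHC class II, so that COX2i was the highest and COX2i + 5-AZA the lowest. The guanylate-binding proteins and class II chains are families of similar genes, so probe reads may be shared among their members.

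Complement genes did not share a direction. The C1q chains were level with the other macrophages (C1qa -0.25, C1qb 0.02, C1qc -0.50), whereas C4b (3.01), Cfb (3.80) and C3 (2.77) were higher. Among chemokines Ccl6 (2.80), Cxcl2 (1.39) and Ccl9 (1.24) were higher and Cxcl16 (-1.88) and Ccl12 (-1.85) lower. Of transcription factors, 7 of 17 were higher and 1 lower. Klf2 (2.43) and Klf4 (1.63) were the highest of those at over 100 CPM, and Bhlhe41 (-3.52) was the lower one. All 11 cell cycle genes were at least 2-fold lower (median -3.00), as were 6 of 8 osteoclast genes (median -2.09), again with the classes of those genes in the comparison. Of a list of 20 genes that the study drew up for Ccl6 macrophages from data that include these cells, and which is no independent evidence, 16 were higher and none lower (median 1.68). The study names a TAM_CCL6 class and no Macro class, and the deposited names hold Macro and no Ccl6 class. Macro may therefore be that class under another name.

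Markers of most other cell types were low, those of dendritic cells less so. The 6 endothelial genes measured, relevant because lymphatic vessels also make LYVE1, summed to 117, 171 and 42.9 CPM in CTRL, COX2i and COX2i + 5-AZA, against 41.4 to 562.5, 31.3 to 539.9 and 43.1 to 616 CPM in the other macrophage classes, and Vwf was at 0 in each. The 11 T and NK cell genes summed to 2.0, 14.7 and 7.3 CPM, with the CD3 chains and Trac at 0. The 9 fibroblast genes summed to 131, 225 and 86.7 CPM, against 11298 to 21282 in the myofibroblasts of those libraries. The 9 dendritic cell genes summed to 64.5, 284 and 133 CPM, above the other macrophage classes in COX2i (11.3 to 156), and in DC3 to between 5481 and 7496 CPM. All 5 of those that could be compared were at least 2-fold higher than in the other macrophages. Their part in the results was not tested.

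The class that Macro resembled most was not the same in each library. In CTRL the Pearson r of log expression was highest with TAM_C1q (0.911) and TAM_Spp1 (0.905), across 9045 genes. In COX2i it was highest with Monocyte_1 (0.888, 9070 genes) and in COX2i + 5-AZA with TAM_H2Ab1 (0.933) and Monocyte_1 (0.930, 8557 genes). TAM_H2Ab1, with 19 cells, was not compared in CTRL. Genes are not independent, and classes with more cells give less noisy profiles.

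Within Macro, the libraries were then compared gene by gene, with TAM_C1q beside them, whose comparisons use the same libraries. COX2i had 306 of 5711 genes (5.36%) at least 2-fold higher and 526 (9.21%) at least 2-fold lower than CTRL. COX2i + 5-AZA had 508 of 7474 (6.8%) higher and 401 (5.37%) lower than CTRL, and 653 of 6907 (9.45%) higher and 225 (3.26%) lower than COX2i. The balance followed the filter on low counts, since with at least 100 UMIs COX2i had 84 genes higher and 54 lower than CTRL, and with at least 1 UMI COX2i + 5-AZA had 864 higher and 1033 lower than CTRL and 876 higher and 1013 lower than COX2i. With 23 cells in COX2i, single cells could decide a value. The chemokine gene Ccl17, the largest difference between COX2i and CTRL (592 CPM against 0 of 495881 UMIs, at least 6.61 on the log2 scale), came from 3 cells, and 1 of them held 81.8% of its UMIs. For Cxcl9 (1532 against 30.3 CPM, log2 ratio 5.66, 4.92 to 6.52) the top cell of COX2i held 76.4%.

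Interferon-γ genes were higher in both treated libraries. In COX2i all 14 genes tested were at least 2-fold above CTRL, against 5.36% of all genes (medians 2.10 and -0.06), and in TAM_C1q 4 of 15 were (median 0.80), where 1.61% of all genes were. Gbp2, a guanylate-binding protein, was at 389 CPM in CTRL, 2414 in COX2i (log2 ratio 2.63, 2.39 to 2.88) and 2087 in COX2i + 5-AZA (2.42, 2.21 to 2.64), in 31 of 73, 23 of 23 and 104 of 105 cells. Igtp, an immunity-related GTPase, was at 98.8, 597 and 545 CPM, and Irf1, a transcription factor of the pathway, at 407, 960 and 1058 CPM. Between COX2i and COX2i + 5-AZA the log2 ratios of these 3 genes were -0.21, -0.13 and 0.14.

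With 5-AZA added to COX2i the list stayed at its COX2i level in Macro. None of its 15 genes was at least 2-fold higher or lower (median 0.07), against 9.45% and 3.26% of all genes, whereas in TAM_C1q 13 of 15 were higher and none was lower (median 1.94), against 4.16% and 5.56% of all genes there. Against CTRL all 15 were higher in COX2i + 5-AZA in either class, with medians of 2.22 in Macro and 3.20 in TAM_C1q, against 6.8% and 3.73% of all genes. The type I list had 6 of 13 genes higher in COX2i and 10 of 14 in COX2i + 5-AZA (medians 0.96 and 1.40), against 5.36% and 6.8% of all genes. Isg15, a ubiquitin-like protein, was at 123, 480 and 684 CPM in CTRL, COX2i and COX2i + 5-AZA. The difference between the classes was not tested.

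Summed over Macro, the MHC class II chains were nearly flat across the libraries, although 2 of 9 genes of the list were at least 2-fold higher in COX2i than in CTRL and 3 of 10 in COX2i + 5-AZA (medians 0.35 and 0.29), against 5.36% and 6.8% of all genes. H2-Aa was at 5937, 6741 and 5962.5 CPM and Cd74 at 14489, 18471 and 15925 CPM in CTRL, COX2i and COX2i + 5-AZA. In COX2i + 5-AZA against CTRL the log2 ratio of H2-Aa was 0.01 (-0.06 to 0.07) in Macro and 2.22 in TAM_C1q, and that of Cd74 was 0.14 and 2.27. The Macro levels were above those of the other macrophages already in CTRL, where the log2 ratio of H2-Aa to them was 3.11. The flat sum covered opposite orders in cells with and without Lyve1, whose shares also differed between libraries. H2-Aa was at 1785, 3436 and 4528 CPM with Lyve1 and at 11425, 7833 and 6316 CPM without, in CTRL, COX2i and COX2i + 5-AZA.

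Resident and scavenger genes were lower in the treated libraries. In COX2i 7 of 18 were at least 2-fold lower than in CTRL and none was higher (median -0.90), and in COX2i + 5-AZA 14 of 19 were lower and 1 was higher (median -1.76), where 9.21% and 5.37% of all genes were lower. The values in TAM_C1q were 4 of 20 lower (median -0.32) and 6 of 20 lower (median -0.71), against 3.86% and 7.63% of all genes there. F13a1, the coagulation factor XIII subunit, was at 2833, 1939 and 684 CPM in CTRL, COX2i and COX2i + 5-AZA, and the selenium carrier Selenop at 5997, 3789 and 2340.0 CPM. Gas6, a ligand of efferocytosis receptors, was at 799, 259 and 182 CPM, and Mrc1 at 3521, 1723 and 1355.5 CPM. The order was the same for these 4 genes. In TAM_C1q Mrc1 had a log2 ratio of -0.01 between COX2i + 5-AZA and CTRL, against -1.38 (-1.48 to -1.27) in Macro.

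The make-up of the class moved with these genes. The share of thinned Macro cells with Lyve1 was 46.5% (34.5 to 58.7) in CTRL, 19.0% (5.4 to 41.9) in COX2i and 20.2% (13 to 29.2) in COX2i + 5-AZA, and that with Retnla was 9.9% (4.1 to 19.3), 19.0% (5.4 to 41.9) and 29.8% (21.2 to 39.6). Selenop was at 8408, 6724 and 4785 CPM in cells with Lyve1 and at 2857, 2885 and 1751 CPM in cells without, in CTRL, COX2i and COX2i + 5-AZA. F13a1 was at 3932, 2740.1 and 1468 CPM with Lyve1 and at 1393, 1691 and 493 CPM without. Both genes were thus lower than in CTRL on either side of that divide in COX2i + 5-AZA, but in COX2i only in the 4 cells with Lyve1. Folr2 was not lower in COX2i + 5-AZA in cells without Lyve1 (555 against 526 CPM). The part of the smaller share of Lyve1 cells in the summed values was not tested.

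Lipid genes did not share a direction. In COX2i + 5-AZA against CTRL, Lpl, the lipoprotein lipase, was at 648 against 44.4 CPM (log2 ratio 3.87, 3.26 to 4.55), in 82 of 105 and 11 of 73 cells. Apoe, the main apolipoprotein of macrophages, was at 4756 against 29156 CPM (-2.62, -2.66 to -2.57, and -2.94 without possible doublets), and Apoc2 at 26.1 against 173 CPM (-2.73, -3.44 to -2.07). Both directions were seen in TAM_C1q too, with log2 ratios of 3.7, -1.48 and -0.54. Acod1, which makes itaconate in inflammatory macrophages, was at 107 against 4.03 CPM in 40 and 2 cells (4.72, 2.83 to 7.79), and the urea cycle enzyme Ass1 at 143 against 8.07 CPM (4.15, 2.76 to 6.05). Spp1, osteopontin, was at 1285, 891 and 182 CPM in CTRL, COX2i and COX2i + 5-AZA, though the top COX2i cell held 71.4% of it. Without possible doublets the log2 ratio of COX2i + 5-AZA to COX2i was -0.24 in place of -2.29.

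**Figure D5:**
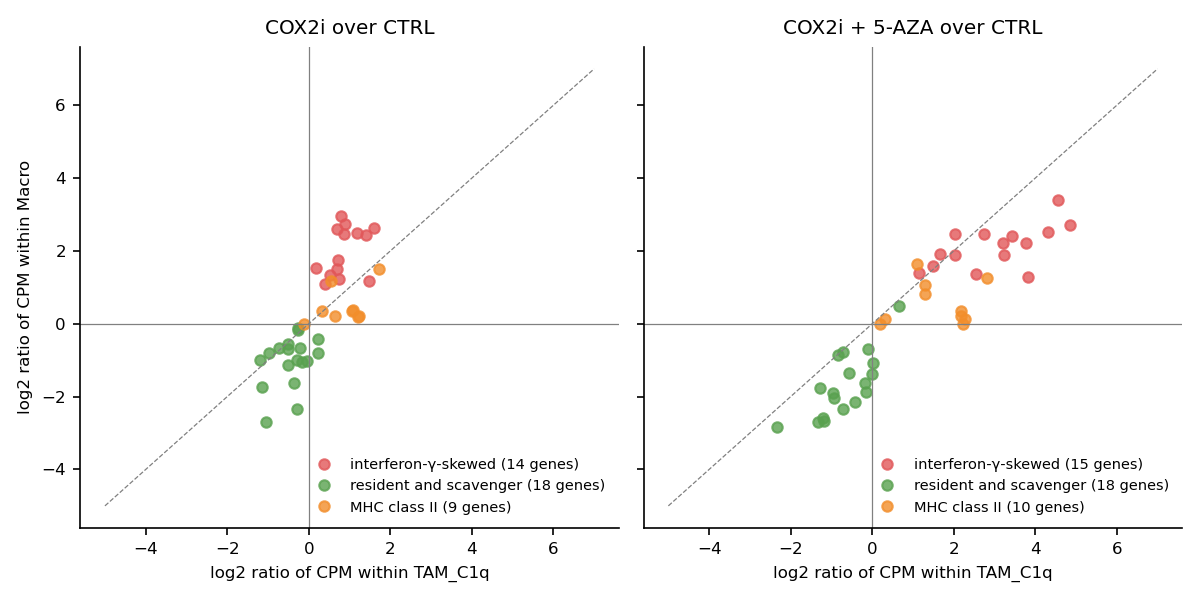
Log2 ratio of CPM between libraries within Macro (vertical) against the same ratio within TAM_C1q (horizontal) for genes of 3 lists, in COX2i over CTRL (left) and COX2i + 5-AZA over CTRL (right), with the dashed line where the classes are equal. Interferon-γ genes lie above 0 in both classes, resident and scavenger genes lie mostly below 0 in Macro, and class II genes lie mostly below the dashed line on the right.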

How the data were processed

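Live CD45+ cells of 4 libraries, 1 per group, were fixed for 22 h and assayed with Chromium Flex probes. The authors made UMI counts with Cell Ranger 7.1.0 on mm10 (GRCm38) and kept cells and genes by their own limits, and the deposited values are raw counts of 12584 genes in 34447 cells, with a deposited class name, library and UMI total for each cell. The study named classes from clusters of several integrated experiments. The UMI sums matched the deposited totals in all 34447 cells.

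Groups followed the labels. Counts were summed per class and library and divided by their total (CPM). Libraries with at least 20 Macro cells entered gene comparisons, which left out IRF3/7, and genes needed 20 UMIs. Zero counts were raised to 3 before a ratio was taken. A ratio of at least 2-fold was called. With 1 library per group no test was made. Shares carry exact Clopper-Pearson, levels exact Poisson and ratios exact conditional 95% intervals, for counting error only. Cells with a droplet barcode found in more than 1 library, or over 3 times the median UMIs of their class and library, counted as possible doublets. Since probe barcodes separate the pooled samples, the first rule may flag cells that are no doublets. Doublets within 1 library were sought by the UMI limit only. Genes named were the 7 markers, the 20 highest and 10 lowest against other macrophages (at least 50 UMIs in Macro, or 50 CPM in the others for the lower, same sign in every library), the 8 largest rises and falls between libraries (at least 100 CPM), and the list members highest in CPM or ratio. Genes named beyond these, and all genes of the comparisons within Macro by Retnla or Lyve1, were chosen after their values were seen. Probes that may bind similar genes (class II, Gbp, Cd209 and Serpina3 families) were not checked. Markers, lists and rules were chosen with earlier results of these data known. Some items are not reported here. The scripts recovered simulated folds. Python 3.11.15, numpy 2.4.6, pandas 2.3.3, scipy 1.17.1 and matplotlib 3.10.9 were used.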

Additional observations from a re-analysis of the deposited data

Results flagged for a closer look

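For 5 genes the Macro cells and TAM_C1q cells of the same libraries moved in opposite directions, which was not tested. In COX2i + 5-AZA against CTRL, Rcn3 had a log2 ratio of -2.74 in Macro and 0.30 in TAM_C1q. In COX2i + 5-AZA against COX2i, the ratios were -3.52 and 1.18 for Procr, -2.53 and 1.26 for Ccl17, -2.45 and 2.52 for Gdf15 and -2.23 and 2.95 for Ccl24. In COX2i the top Macro cell held 86.4% of the Procr, 81.8% of the Ccl17, 57.9% of the Gdf15 and 84.6% of the Ccl24 UMIs. Rcn3, an endoplasmic reticulum protein, was found in 29 CTRL and 16 COX2i + 5-AZA Macro cells and was among the genes higher in cells with Lyve1.

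Retnla was at 114 CPM in TAM_cycling of COX2i + 5-AZA and at 0.0635 CPM in TAM_cycling of CTRL. It was found there in 20 of 1320 cells, and 6 of them held 10 or more UMIs, at a median of 16097 UMIs per cell, with 1 of the 6 on a shared droplet barcode. The 4 Macro cells of IRF3/7, which entered no gene comparison, had Ccl8 at 5867 CPM, from 156 UMIs of which 1 cell held 96.2%.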

How the results depend on the processing

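Of the shares, with only cells above 2000 detected genes IRF3/7 was at 0.191% and COX2i + 5-AZA at 1.27%, and no ratio of shares left its interval. Cells with at least 3 markers made up 0.404%, 0.0565% and 0.150% of the thinned cells of CTRL, COX2i and COX2i + 5-AZA, and 1.03%, 0.219% and 0.399% without thinning. Thinned to 1000 UMIs, CTRL and COX2i + 5-AZA gave 0.279% and 0.0798%, and with at least 4 markers 0.0461% and 0.0429%. Against other macrophages, 789 genes were lower when TAM_Spp1 alone was compared, and with genes at 20 CPM or more, chosen after seeing the data, 399 were higher and 672 lower. Leaving out each library in turn gave 636 to 754 genes higher and 1241 to 1414 lower. Ctsk turned to 0.32 against TAM_Spp1 alone, which lacks the Ctsk_Macro cells. Between libraries the counts of higher and lower genes followed the filter. With at least 100 UMIs they were 84 and 54 (COX2i against CTRL), 206 and 102 (COX2i + 5-AZA against CTRL) and 68 and 36 (COX2i + 5-AZA against COX2i), and with at least 1 UMI 1095 and 1166, 864 and 1033, and 1013 lower in the last. Median-of-ratios scaling shifted the log2 ratios to other macrophages by -0.13, -0.09 and -0.12 in CTRL, COX2i and COX2i + 5-AZA, and those between libraries by under 0.1. Without possible doublets 803 genes were higher and 1307 lower than in other macrophages, Gdf15 in COX2i + 5-AZA against COX2i was at -1.35 in place of -2.45, and Chil3 at 2.88 in place of 5.66. Of the other values, 82 answering a comparison and 522 of single genes or lists stayed within their spread or on their side of the 2-fold call, and 50 of single genes moved, mostly against TAM_C1q or TAM_Spp1 alone. No paired analysis was possible because each group is 1 library and the labels number no replicates.

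Depth limits the 4 IRF3/7 cells most, where 3 counts correspond to 113 CPM, against 3.14 CPM in COX2i + 5-AZA.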
